A study of Mus musculus with 23 samples.

Results

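The genes described here are the collagens and a set of matrix and other genes known from the fibroblasts of the meninges, the membranes around the brain. Members were every row of the deposited count table whose symbol is Col, a number, a and a number, together with Dcn, Lum, Fn1, Fbln1, Fbln2, Ogn, Igf2, Slc6a13 and Aldh1a2. This gave 53 genes, 44 collagens and 9 others, of 24421 rows. Of them 52 were among the 15475 genes that passed the low-count filter, and Col10a1, the short-chain collagen of growth-plate cartilage, did not: it had 0 counts in 3 libraries and no more than 0.628 CPM (counts per mega-count of the library, after scaling) in any.

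The study sequenced polyadenylated RNA of the hippocampus of mouse pups taken on postnatal day 14, to compare levels of phlebotomy-induced anemia (PIA), which is anemia caused by repeated blood draws, in both sexes. Non-bled controls (NBC) had a needle prick only. Moderately anemic pups (mPIA) were bled to a haematocrit, the red cell share of blood volume, of 25%, and severely anemic pups (sPIA) to 18%. From postnatal day 3 they gave blood 2 times daily, at 5.25 µl for each gram they weighed, and once the goal was met 1 time daily at 3.5 µl for each gram. No genotype, strain or transgene is named in the labels, all 6 groups share the tissue and the age, and the design text speaks of 4 males and 4 females per level. Each group had 4 libraries, apart from NBC males with 3, numbered 2, 3 and 4.

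Library totals lay between 15.2 and 44.4 mega-counts, and the members held 0.124% to 0.196% of them. Markers of hippocampal neurons, 10 of 10 with counts, summed to between 4070 and 4901 CPM in all groups. Library codes in the labels begin with a plain number in NBC and mPIA females, with M in mPIA males and with P in the other 3 groups. The labels do not say what the codes mean, and where compared groups begin differently, as sPIA and NBC females or mPIA and NBC males do, the code and the group cannot be told apart. Each label also ends in S and a number of unstated meaning. In the sPIA libraries of both sexes this number was lower than in every NBC and mPIA library. In every comparison of sPIA with NBC or mPIA, that number and the group therefore cannot be told apart either. In 4 libraries Ttr, the transthyretin of the choroid plexus, exceeded 1000 CPM: NBC female 2 (2025 CPM), sPIA female 2 (1324 CPM), NBC male 3 (2464 CPM) and NBC male 4 (4378 CPM), against no more than 231 CPM in the other libraries and 1.23 CPM in NBC male 2. Results that rest on these libraries are given with and without them.

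Collagens are secreted proteins whose alpha chains wind into a helix. Fibrillar collagens (I, III, V, XI) form the cables of connective tissue, collagen IV forms the sheet-like network of basement membranes, and other classes decorate fibrils, anchor cells or span the cell membrane. In the brain collagens I and III are made mainly by meningeal and perivascular fibroblasts, and collagen IV by endothelial cells, pericytes and fibroblasts around vessels and under the pia. The parenchyma holds little of collagens I and III, while some neurons make transmembrane or fibril-associated collagens such as XXV and XIX.

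Collagen IV genes sit in head-to-head pairs, and the pairs hold both some of the steadiest and some of the least steady members. The least steady of them, Col4a3 and Col4a6, had few counts. The stretches between the starts of the pairs are shown first. Sequences are those of RefSeq (build GRCm38.p6), with starts as in the GENCODE M21 annotation. They are printed 5′ to 3′ in lower case. Capitals mark matches, on either strand, to the letters CCAAT of the CCAAT box, to GGGCGG of the GC box or to TATAAA of the TATA box, which do not overlap here. Col4a1 (chr8:11198423-11312826, minus strand) and Col4a2 (chr8:11312805-11449287, plus strand) overlap in their first 22 bases, shown on the plus strand (chr8:11312805-11312826).
Col4a1 and Col4a2, shared first bases: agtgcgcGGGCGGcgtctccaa
Col4a4 (chr1:82448423-82586849, minus strand) and Col4a3 (chr1:82586921-82722059, plus strand) are 71 bases apart, and that gap is shown on the plus strand (chr1:82586850-82586920).
Col4a4 and Col4a3, gap: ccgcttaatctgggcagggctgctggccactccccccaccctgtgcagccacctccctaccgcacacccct
Col4a6 (chrX:141165403-141474076, minus strand) and Col4a5 (chrX:141475385-141689234, plus strand) are 1308 bases apart. Of that gap, 250 bases before Col4a6 (chrX:141474077-141474326, minus strand) and 216 bases before Col4a5 (chrX:141475169-141475384, plus strand) are shown, each on its gene's strand.
Col4a6, before its start: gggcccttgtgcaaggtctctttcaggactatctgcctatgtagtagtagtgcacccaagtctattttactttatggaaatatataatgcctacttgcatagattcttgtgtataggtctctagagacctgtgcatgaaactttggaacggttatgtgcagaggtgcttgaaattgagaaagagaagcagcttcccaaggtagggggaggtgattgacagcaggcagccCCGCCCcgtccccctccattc
Col4a5, before its start: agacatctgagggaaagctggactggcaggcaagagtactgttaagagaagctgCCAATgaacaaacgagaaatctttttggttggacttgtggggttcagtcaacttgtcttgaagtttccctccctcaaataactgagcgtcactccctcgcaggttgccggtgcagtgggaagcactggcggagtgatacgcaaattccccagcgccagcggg
For contrast, the 250 bases before Col3a1 (chr1:45311288-45311537, plus strand), a fibrillar collagen that varied far more between libraries than Col4a1, hold TATAAA, which begins 117 bases before the start.
Col3a1, before its start: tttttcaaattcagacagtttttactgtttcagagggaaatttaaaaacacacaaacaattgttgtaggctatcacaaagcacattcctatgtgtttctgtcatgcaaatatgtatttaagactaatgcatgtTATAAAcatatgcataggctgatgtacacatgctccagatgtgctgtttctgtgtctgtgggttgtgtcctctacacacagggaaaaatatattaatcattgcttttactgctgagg
RefSeq windows of 250 bases before the start were found for 41 of the 53 members, in 50 windows. The GC box letters occurred in 54% of these windows and in 32.7% of 32851 windows of all genes. The CCAAT letters occurred in 32% and 33.8%, and the TATA letters in 12% and 12.4%. The windows were counted as they stand, and a match says only that the letters are there.

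The members spanned a wide range of levels. Per kilobase of the longest transcript, the median over the 23 libraries was highest for Col4a1 (31.7 CPM per kb) and Col4a2 (26.8 CPM per kb), the main chains of basement membrane collagen IV. Next came Fn1, the adhesive glycoprotein fibronectin (22.2 CPM per kb), and Igf2, a growth factor secreted by meninges and choroid plexus (20.7 CPM per kb). Col25a1, a transmembrane collagen, and Col6a1, a chain of beaded filaments, both had 16.7 CPM per kb, Col9a3, a fibril-associated chain, 16.3 CPM per kb, and Dcn, the fibril-binding proteoglycan decorin, 12.6 CPM per kb. Among the fibrillar chains Col11a1 and Col5a2 were highest, at 8.46 and 6.14 CPM per kb. Below them lay Col1a2, Col11a2, Col3a1 and Col1a1, at 5.92, 4.95, 4.21 and 3.81 CPM per kb. Neighbours in this order were not tested against each other. Igf2 shares 62.8% of its exonic bases with Gm49394, a gene model on the same strand with no row in the table, so its counts are uncertain. It also shares 98 bases with its antisense gene Igf2os. Col9a3 shares 6.07% of its exonic bases with Tcfl5 on the other strand, and no source used here says whether the counting used strand.

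The spread over libraries separated steady from unsteady members. In 9 members the highest library was less than 2-fold above the lowest, and in 11 it was more than 10-fold above. The 9 were Col25a1, Col19a1, Col16a1, Col4a2, Fn1, Col4a1, Fbln2 (a fibulin of elastic fibres and basement membranes), Col5a2 and Col26a1. Col25a1 was the narrowest, from 92.1 to 142 CPM, a 1.55-fold range. Of the 11, Col24a1, Col6a6 and Col17a1 had a lowest count of 1 or 2. The other 8 were Col1a2, Col3a1, Ogn, Col8a1, Col8a2, Col4a3, Col4a6 and Col6a4. Their lowest counts ran from 5 in Col4a3 and 12 in Col4a6 to 132 in Col3a1 and 139 in Col1a2. In the 9 steady members the lowest count ran from 150 (Fbln2) to 2397 (Col4a1). The range over libraries and the count level were thus not separated.

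**Figure D1:**
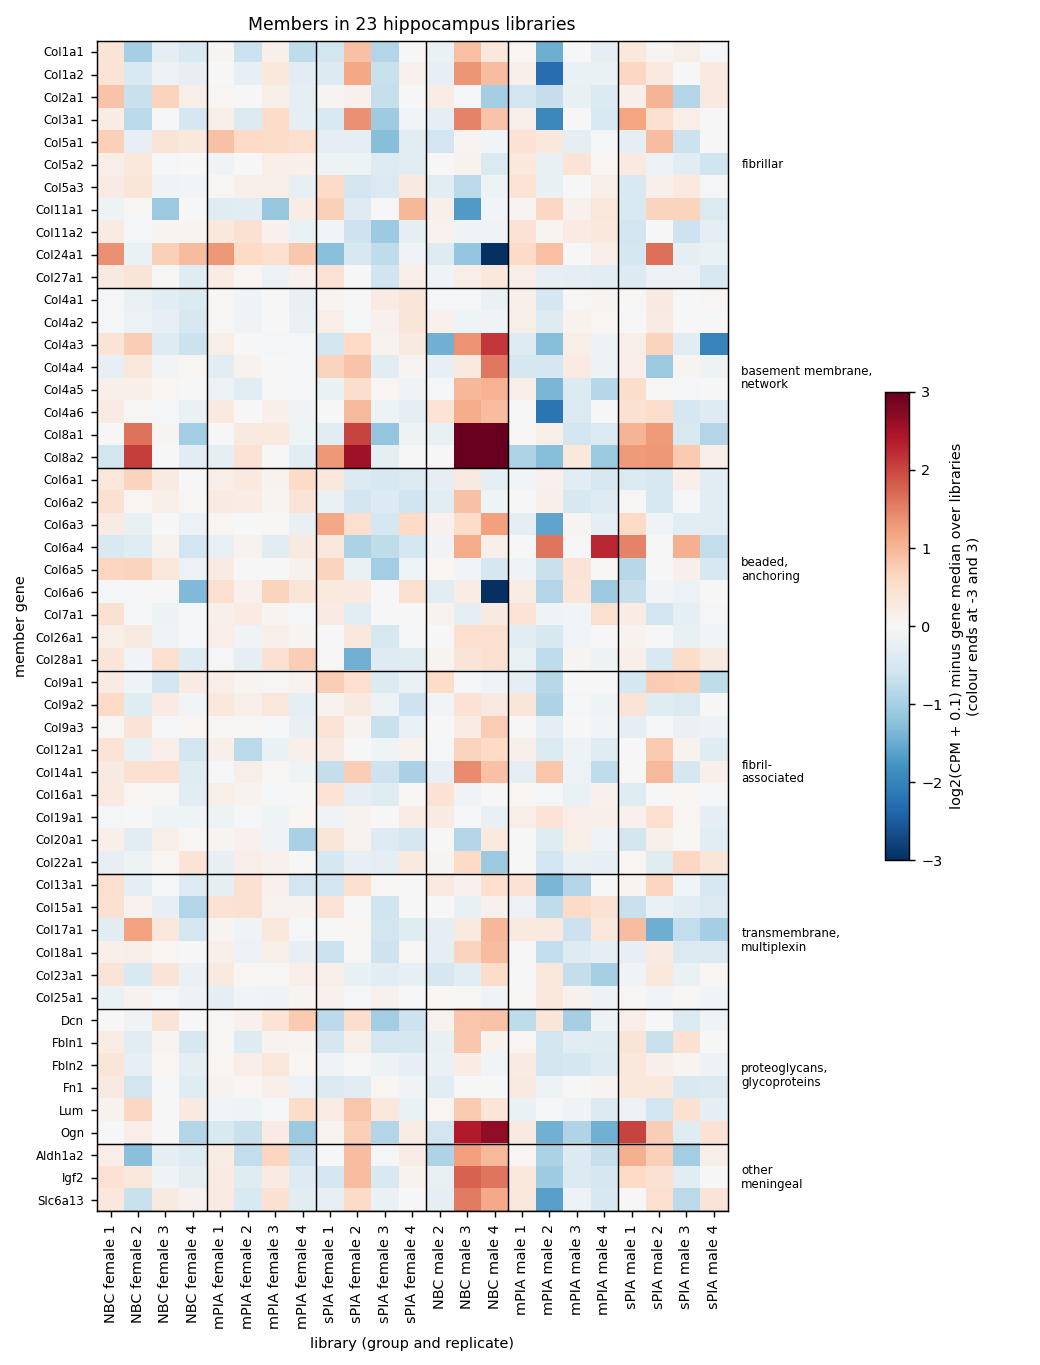
Level of each of the 52 members tested (rows, by class) in each of the 23 libraries (columns, by group), as log2(CPM + 0.1) minus the gene's median over the libraries. NBC male 3 and NBC male 4 stand out in red for Col8a1, Col8a2, Ogn, Igf2 and Slc6a13, mPIA male 2 in blue for Col1a2, Col3a1 and Col4a6, and the rows of Col4a1, Col4a2 and Col25a1 are pale throughout.

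A few libraries held many of the extremes. NBC male 3 was the highest of the 23 libraries for 10 of 52 members (19.2%, against 3.22% of all genes tested) and NBC male 4 for 12 (23.1%, against 13.1%). The library mPIA male 2 was the lowest for 16 members (30.8%, against 7.97% of all genes), and sPIA female 3 was the lowest for 8. Both patterns, highest in NBC male 3 or NBC male 4 and lowest in mPIA male 2, met in 11 members: Col1a1, Col1a2, Col3a1, Col4a5, Col4a6, Col6a3, Col8a2, Col18a1, Col26a1, Igf2 and Slc6a13. These are 21.2% of the members, against 2.18% of all genes, and the libraries were chosen after the values were seen. Of 34 further genes of meningeal fibroblasts, 26 were highest in NBC male 3 or NBC male 4 and 12 showed both patterns. All 14 markers of choroid plexus epithelium were highest in NBC male 3 or NBC male 4, and 2 of them (Aqp1 and Kcnj13) were lowest in mPIA male 2.

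Col1a2, with Col1a1 a chain of collagen I, the main fibrillar collagen, shows this pattern. Its level was 26.9, 79.8 and 60.2 CPM in NBC males, 35, 6.42, 27.5 and 27.7 CPM in mPIA males and 48.7, 39.1, 31.7 and 38.9 CPM in sPIA males, in the order of the replicate numbers. In females it was 41.9, 23, 27.9 and 26.7 CPM in NBC, 32.1, 26.7, 39.4 and 25.4 CPM in mPIA and 23.9, 70.4, 19.9 and 34.8 CPM in sPIA. The high values were those of NBC male 3, sPIA female 2 and NBC male 4, the low value that of mPIA male 2, and the ranges of all groups overlapped. Col3a1, the chain of collagen III that runs with collagen I in soft tissue, had 19.3, 65.7 and 42.7 CPM in NBC males, 26.4, 6.10, 23.4 and 17.2 CPM in mPIA males and 53, 33, 26.8 and 23.5 CPM in sPIA males. In females its values were 27.5, 13.4, 22.9 and 16.6 CPM in NBC, 26.6, 17.3, 34.5 and 19.5 CPM in mPIA and 17.2, 60.6, 11.1 and 22 CPM in sPIA. Again NBC male 3 and sPIA female 2 were highest and mPIA male 2 lowest. Neither gene passed the test between any groups, and the adjusted p was 0.214 for Col1a2 and 0.286 for Col3a1 in mPIA against NBC males. The ratio of Col1a2 to Col1a1 per kilobase was 1.75 in the median library and 0.881 in mPIA male 2, the lowest, where Col1a2 was 12.4-fold and Col1a1 5.19-fold under its highest library.

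Igf2 and Slc6a13, which encodes a GABA and taurine transporter of meningeal fibroblasts, followed the same libraries. Igf2 had 83.9, 335 and 295 CPM in NBC males, 122, 46.8, 72.5 and 68.4 CPM in mPIA males and 149, 134, 78.3 and 97.5 CPM in sPIA males. In females it had 131, 123, 88.9 and 81 CPM in NBC, 116, 75.8, 116 and 74.7 CPM in mPIA and 68.6, 184, 71.3 and 104 CPM in sPIA. NBC male 3 and NBC male 4 stood above every other library, while NBC male 2 lay among the bled males. Slc6a13 had 5.82, 20.9 and 15.54 CPM in NBC males and 8.79, 2.22, 6.27 and 5.01 CPM in mPIA males. Ogn, the proteoglycan osteoglycin, had 2.47, 19.4 and 23.6 CPM in NBC males, 4.47, 1.29, 1.92 and 1.28 CPM in mPIA males and 15.4, 6.18, 2.84 and 4.98 CPM in sPIA males. Col8a1, a network collagen known from vessel walls and corneal endothelium, had 1.92, 23.9 and 48.5 CPM in NBC males and no more than 9.42 CPM elsewhere. In all 4 genes NBC male 2 lay further from either other NBC male than from any bled male. In whole tissue, more cells of a type and more RNA per cell cannot be told apart.

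**Figure D2:**
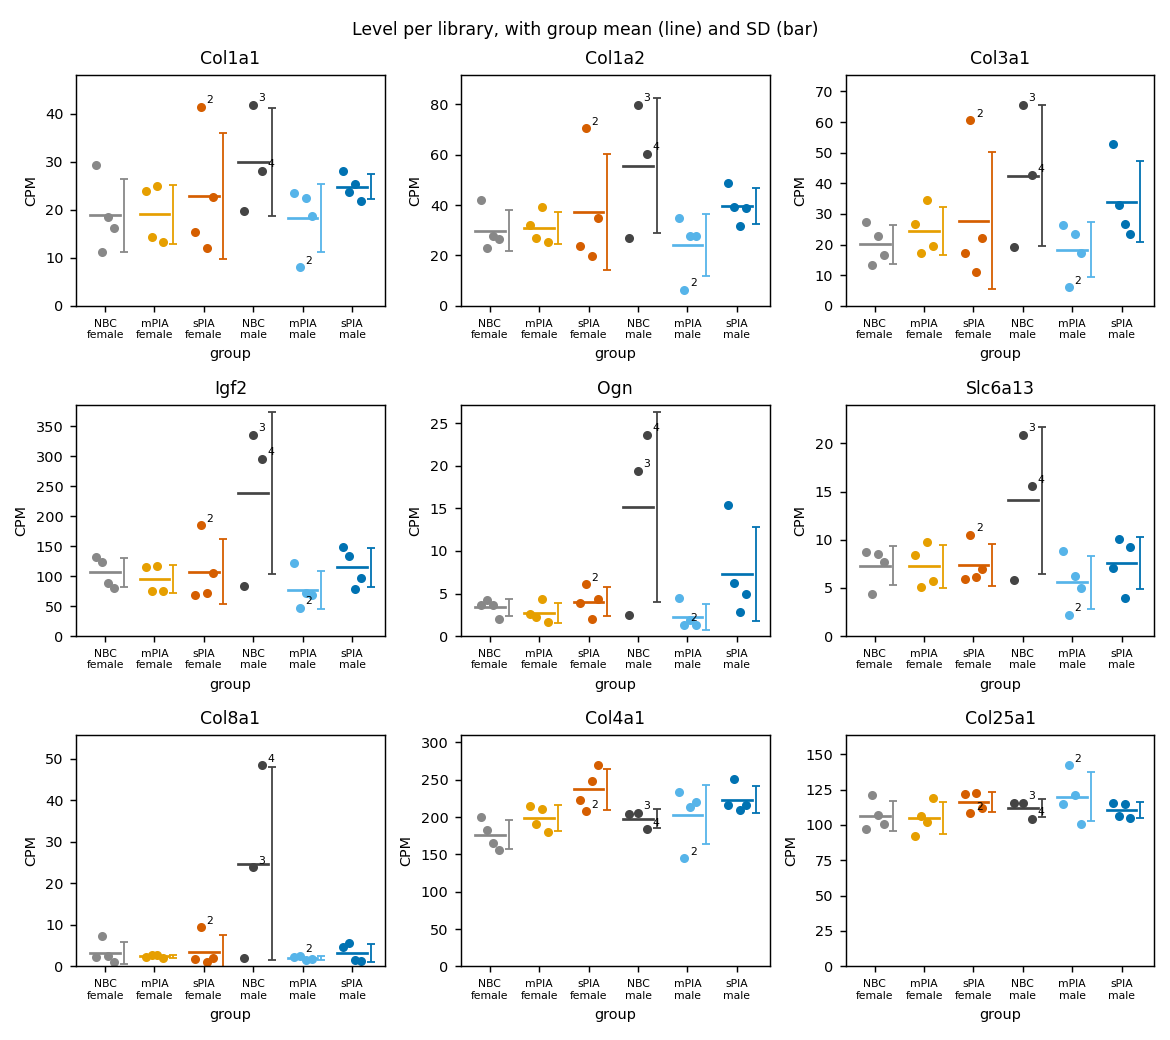
CPM of 9 members in each library (points) by group, with the group mean (line) and SD (bar); the digit marks replicate 2 of sPIA females and mPIA males and replicates 3 and 4 of NBC males. NBC male 3 and NBC male 4 lie far above NBC male 2 for Igf2, Ogn, Slc6a13 and Col8a1, while Col4a1 is higher in all 4 sPIA females than in all 4 NBC females and Col25a1 stays between 92.1 and 142 CPM.

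Between sPIA and NBC females, Col4a1 and Col4a2 rose, and Col6a2 and Col11a2 fell. Called here means an adjusted p under 0.05 in edgeR's quasi-likelihood test with Benjamini-Hochberg adjustment over all genes tested. The 4 called members are 7.69% of 52, against 16% of all genes. By direction they are 3.85% each way, against 8.12% of all genes higher and 7.86% lower, so the count of members called does not stand out. Of the 52, 25 changes were above and 27 below 0, with a median log2 change of -0.05, against 0.00 over all genes.

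Col4a1 had 200.03, 183, 165 and 156 CPM in NBC females, 215, 190.1, 211 and 179 CPM in mPIA females and 223, 207, 248 and 269.6 CPM in sPIA females. Every sPIA female lay above every NBC female, and mPIA females overlapped both. The mean was 176 ± 19.5 CPM in the 4 NBC females (± SD) and 237 ± 27.3 CPM in the 4 sPIA females. That is a log2 change of 0.43 with an SE of 0.114 and an adjusted p of 0.0123. Col4a2 had 170.0, 154, 147 and 124 CPM in NBC females, 178, 161, 173 and 149.6 CPM in mPIA females and 199.6, 168, 188 and 224 CPM in sPIA females. The lowest sPIA female lay just under the highest NBC female. Its log2 change was 0.39 (SE 0.109, adjusted p = 0.0164). The ratio of Col4a1 to Col4a2 per kilobase stayed between 1.06 and 1.29 in all 23 libraries, while each gene ranged 1.86-fold and 1.81-fold.

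The change in Col4a1 kept its call without any single library of the compared groups, with an adjusted p of 0.00733 to 0.0431. Col4a2 lost it without NBC female 4 (adjusted p = 0.0511) or without sPIA female 4 (adjusted p = 0.0561). Both kept it without the 4 libraries with high Ttr, at a log2 change of 0.51 for Col4a1 (adjusted p = 0.024) and 0.47 for Col4a2 (adjusted p = 0.0192). In males, Col4a1 had 204, 206 and 184 CPM in NBC, 233, 145, 214 and 221 CPM in mPIA and 216, 250.4, 209 and 217 CPM in sPIA. All sPIA males lay above all NBC males, but the log2 change of 0.17 (SE 0.123) did not pass (adjusted p = 0.613). The difference between the sexes in the sPIA effect was 0.25 for Col4a1 (SE 0.167, adjusted p = 0.467) and 0.30 for Col4a2 (SE 0.159, adjusted p = 0.36), so a difference between the sexes was not shown.

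The other basement membrane and network collagens were not called in this comparison. All 8 tested members of this class had a log2 change above 0 in sPIA against NBC females (median 0.30), against 50% of all genes. Without the 4 libraries with high Ttr 5 of the 8 were above 0 (median 0.22), and Col4a5, Col4a6 and Col8a1 were below. With all libraries Col4a5, an alternative collagen IV chain, had a log2 change of 0.00, and Col8a1 of 0.12. Among laminins and other basement membrane genes, Nid1, which links laminin to collagen IV, rose by a log2 change of 0.42 (adjusted p = 0.0363). Some markers of cells that make collagen IV rose in the same comparison, where 8.12% of all genes did. Of 14 endothelial markers 4 rose (28.6%): Kdr (log2 change 0.57, adjusted p = 5.43e-05) and Flt1 (0.57), both VEGF receptors, Eng (0.45) and the efflux pump gene Abcb1a (0.35). The summed endothelial level was 392 to 419 CPM in NBC females and 447 to 512 CPM in sPIA females, with no overlap and no marker at 0 throughout. Of 15 markers of pericytes and smooth muscle only Abcc9 rose (6.67% of them, log2 change 0.65, adjusted p = 0.0015), and the sums overlapped (267 to 339.8 against 279 to 372 CPM). Their part in the change of Col4a1 and Col4a2 was not tested.

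Col6a2, a chain of the beaded filaments of collagen VI, had 22, 16.7, 18.3 and 16.4 CPM in NBC females and 14.1, 10.9, 12.1 and 10.7 CPM in sPIA females. Every sPIA female lay below every NBC female, and the log2 change was -0.62 (SE 0.199, adjusted p = 0.0354). Col11a2, a chain of collagen XI, had 35.6, 28.7, 31.7 and 31.6 CPM in NBC females and 28.4, 19.5, 14 and 24.8 CPM in sPIA females, again with no overlap, and a log2 change of -0.56 (SE 0.172, adjusted p = 0.0284). Both calls were lost when a trend of the changes with GC content and transcript length was removed, with log2 changes of -0.53 for Col6a2 (adjusted p = 0.132) and -0.41 for Col11a2 (adjusted p = 0.101). They were also lost without 6 (Col6a2) or 5 (Col11a2) of the 8 libraries in turn, and Col11a2 without the 4 libraries with high Ttr (adjusted p = 0.109). Outside the calls, Col5a1 (17.5 to 34.5 CPM in NBC and 8.54 to 17.3 CPM in sPIA females) and Col5a2 (39.3 to 50.7 and 30.9 to 36.9 CPM) also did not overlap, and Col6a6 (0.586 to 1.62 and 1.63 to 2.30 CPM) lay higher in all sPIA females. Without overlap, 2 of 52 members lay higher and 4 lower (3.85% and 7.69%), against 9.85% and 11.2% of all genes.

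GC content moved with this comparison. The median GC of the members' longest transcripts was 54.7%, against 49.8% for all genes tested, and the median log2 change of all genes between sPIA and NBC females fell from 0.16 under 45% GC to -0.21 over 60%. With that trend removed, the log2 change was 0.53 for Col4a1 (adjusted p = 0.00211) and 0.53 for Col4a2 (adjusted p = 0.000658), whose transcripts have 57.7% and 60.6% GC. In mPIA against NBC females the same medians lay between -0.02 and 0.00. For each library, GC content was rank-correlated over genes with the deviation of each gene's log2 level from its mean over the 23 libraries. This correlation was positive (0.155 to 0.55) in the 8 NBC and mPIA females. It lay between -0.436 and 0.0334 in the 4 sPIA females, which also differ in library code. The deviations are relative to the other libraries, so the sign says nothing of the absolute relation of level to GC.

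**Figure D3:**
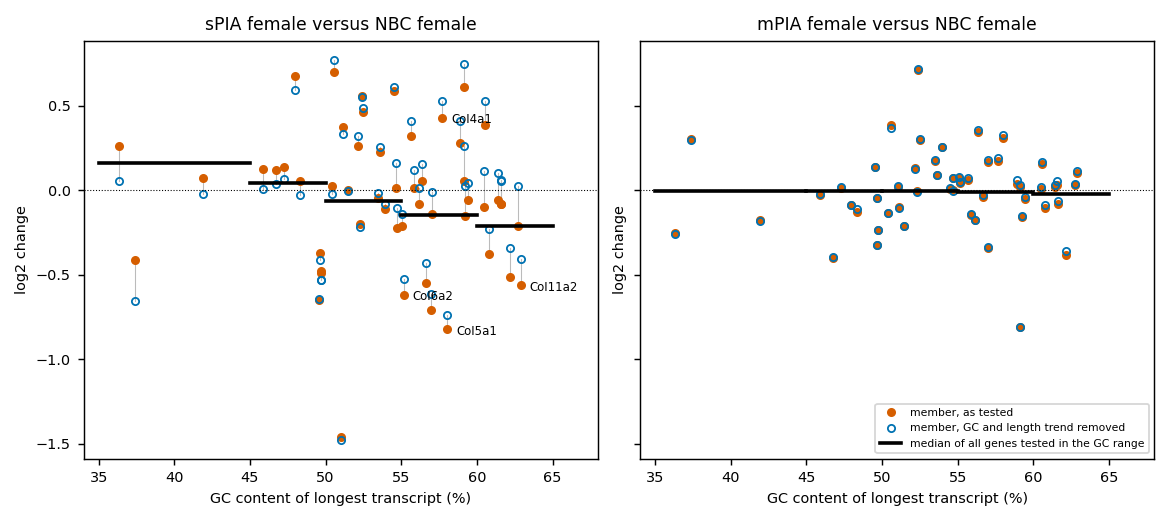
Log2 change of each member (points) against the GC content of its longest transcript in percent, as tested (filled) and after removal of the GC and length trend (open), with the median of all genes tested in each GC range (black bars). The bars fall from 0.16 to -0.21 in sPIA against NBC females and are flat in mPIA against NBC females, and Col4a1 lies above the bar of its range.

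Genes that build, cut and sense collagen were given by lists. Of 30 genes of collagen folding, modification and crosslinking, 2 rose and 2 fell in sPIA females: P4ha1, a prolyl hydroxylase subunit (log2 change 0.33, adjusted p = 0.003), Adamts3, a procollagen peptidase (0.45, adjusted p = 0.00684), Adamts2, a procollagen peptidase too (-0.78, adjusted p = 0.0263), and Colgalt1, a collagen galactosyltransferase (-0.19, adjusted p = 0.0493). Of 16 tested receptors and collagenases, the collagen-binding integrin chain Itga1 rose (0.47, adjusted p = 0.031) and the inhibitor Timp2 fell (-0.32, adjusted p = 0.0187). Of 17 genes of TGF-beta signalling, which drives collagen transcription in fibroblasts, Tgfbr1 (0.53), Tgfb2 (0.45) and Smad7 (0.64) rose and Ltbp4 (-0.29) fell. The shares called were 13.3%, 12.5% and 23.5%, beside 16% of all genes.

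None of the collagen I and III chains and none of the 9 members that are not collagens passed the test in sPIA against NBC females. Col1a1, Col1a2, Col3a1, Dcn, Lum, Ogn, Fn1, Fbln1, Fbln2, Igf2, Slc6a13 and Aldh1a2 had adjusted p-values of 0.355 (Aldh1a2, the enzyme that makes retinoic acid) to 0.989. Dcn had 58.9, 54.7, 77.3 and 58.5 CPM in NBC, 60.6, 65.1, 79.3 and 103 CPM in mPIA and 34.5, 85.6, 28.5 and 38.5 CPM in sPIA females. Among sPIA females only number 2, with high Ttr, reached the NBC range. Without the 4 libraries with high Ttr its log2 change went from -0.41 to -0.94 (adjusted p = 0.0728), and those of Col1a1 (0.28 to -0.36), Col1a2 (0.32 to -0.30) and Col3a1 (0.47 to -0.42) changed sign without passing the test. Of the 34 genes listed as further meningeal fibroblast genes 8.82% were called, against 16% of all genes. The transcription factor Foxc1 rose (0.63, adjusted p = 0.0336), and Nov (-0.98) and Cemip (-0.39) fell. Mean levels in NBC females were 4.51 CPM for Foxc1, 260 CPM for Nov and 69.3 CPM for Cemip. Which cells these transcripts came from was not tested.

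Severe and moderate anemia in females differed in 4 members (7.69%, against 16.1% of all genes), all lower in sPIA, where 7.48% of all genes were lower. Col5a1, a chain of the collagen V that sets fibril width, had 38.4, 31.7, 30.6 and 29.7 CPM in mPIA and 17.3, 17.1, 8.54 and 16.6 CPM in sPIA females. The groups did not overlap, with a log2 change of -1.13 (SE 0.302, adjusted p = 0.0152). The call was lost without mPIA female 1 or sPIA female 3 (adjusted p up to 0.0569). Col11a2 had 37.1, 41.1, 32.7 and 25.9 CPM in mPIA females and fell by 0.66 on the log2 scale (SE 0.171, adjusted p = 0.00971). It kept its call without each library in turn (adjusted p up to 0.0397) but not without the 4 libraries with high Ttr (adjusted p = 0.0501). Col6a2 had 19.1, 18.7, 17 and 21 CPM in mPIA females and fell by 0.66 (adjusted p = 0.0233), lost without 6 of 8 libraries in turn. Col24a1, a minor fibrillar collagen, had 5.19, 3.14, 2.90 and 3.69 CPM in mPIA and 0.795, 1.45, 1.17 and 1.91 CPM in sPIA females. It fell by 1.48 (adjusted p = 0.0473), and the call was lost without each of the 8 libraries (adjusted p 0.0533 to 0.142). Without overlap 5 members lay lower in sPIA (9.62%, against 13% of all genes): Col5a1, Col5a2, Col6a2, Col24a1 and Fbln2. The comparisons of sPIA with mPIA and with NBC share the sPIA libraries.

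Moderate anemia in females gave no call among the members. Of 52, 0 were called (0.00646% of all genes, 1 gene, were), and 0 had an unadjusted p under 0.05, as had 0.355% of all genes. DESeq2 and limma-voom also called 0 members, beside 1 and 0 of all genes. The changes split into 29 above and 23 below 0, with a median of 0.01. Col6a6, a minor collagen VI chain, was the 1 member (1.92%, against 0.795% of all genes higher) whose groups did not overlap, at 1.77 to 2.64 CPM in mPIA against 0.586 to 1.62 CPM in NBC females (adjusted p = 1.00). NBC and mPIA females share library codes. With the code as a block the member count was again 0, beside 6 of all genes, and the log2 change of Col4a1 was 0.19.

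In males most members lay lower in bled than in non-bled pups when all libraries were used, and few passed the test. In mPIA against NBC males 35 of 52 changes were below 0 (67.3%, against 48.3% of all genes), with a median of -0.40. Without the 4 libraries with high Ttr 31 of 52 were below 0 (59.6%), with a median of -0.05. The median of the 8 basement membrane and network collagens was -1.29 with all libraries and -0.06 without those 4. Only Col4a5 was called, lower in mPIA (1.92%, against 0.653% of all genes in either direction and 0.498% lower), and 22 members (42.3%, against 16% of all genes) had an unadjusted p under 0.05. It had 11.8, 24.5 and 25.1 CPM in NBC males, 14, 4.62, 9.15 and 6.72 CPM in mPIA males and 17.6, 12.6, 11.9 and 12.1 CPM in sPIA males. NBC male 2 fell inside the mPIA range, and the log2 change was -1.25 (SE 0.274, adjusted p = 0.0387). The call was lost without NBC male 3, NBC male 4, mPIA male 2, mPIA male 3 or mPIA male 4 (adjusted p up to 0.238). Its head-to-head neighbour Col4a6 had 3.90, 6.40 and 5.60 CPM in NBC males and 2.88, 0.555, 2.13 and 2.88 CPM in mPIA males, with no overlap and a log2 change of -1.33 (adjusted p = 0.0708). Their ratio per kilobase ranged from 2.37 to 8.48 over the libraries, wider than that of Col4a1 to Col4a2.

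**Figure D4:**
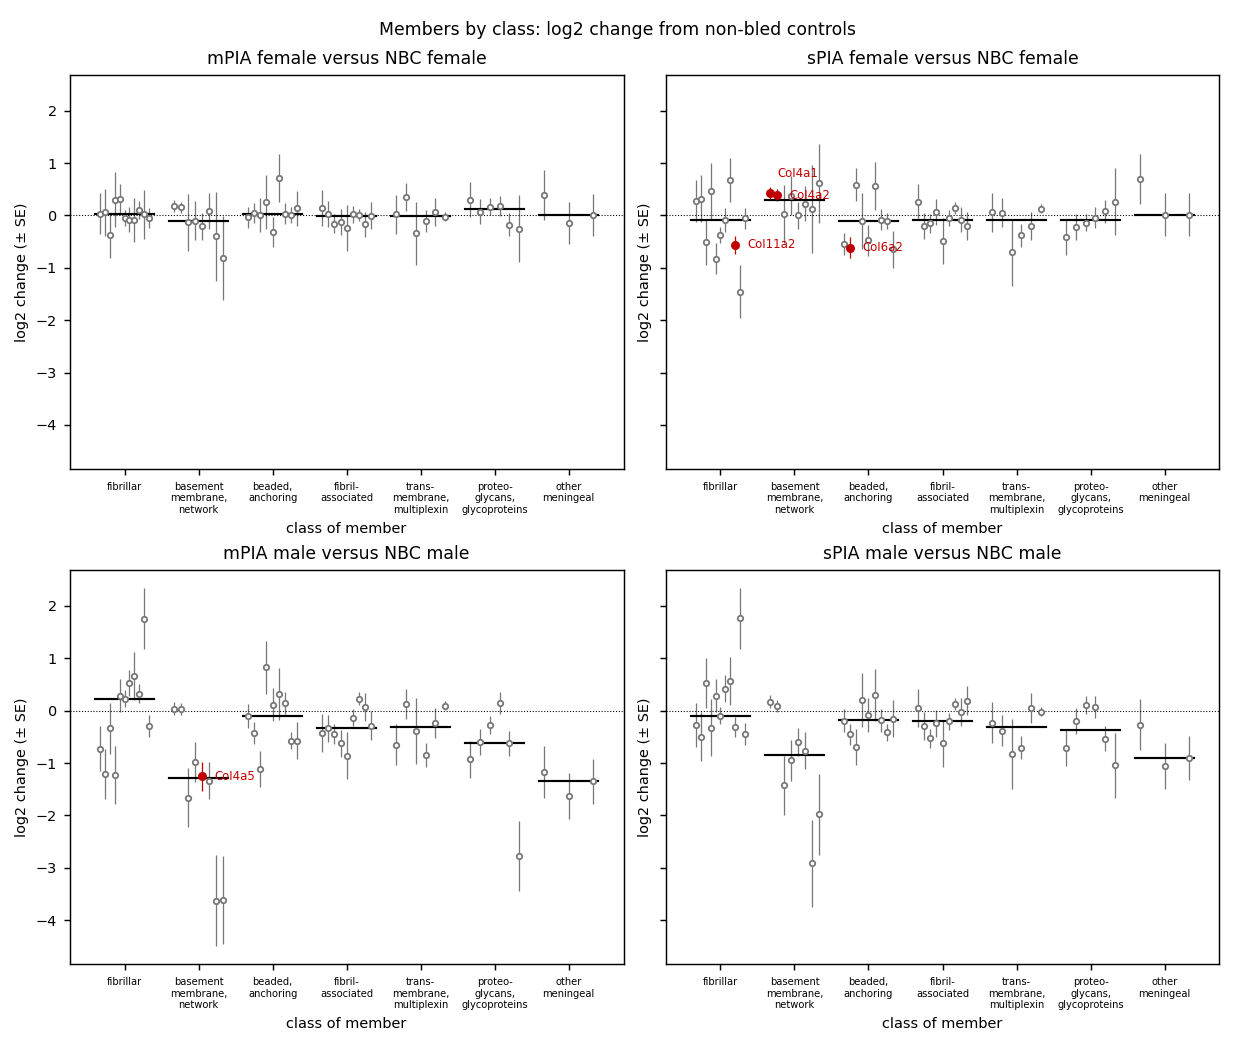
Log2 change against the non-bled controls of the same sex (± SE) for the 52 members tested, by class, with class medians (black bars) and called members filled. In sPIA females Col4a1 and Col4a2 lie above 0 and Col11a2 and Col6a2 below, and in mPIA males the basement membrane and network class has a median of -1.29 with Col4a5 called.

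The male comparisons rested on which NBC males were used. Without NBC male 2, 14 members, and 1124 of all genes, were called in mPIA against NBC males. The members included Igf2, Slc6a13, Aldh1a2, Ogn, Col18a1 and Col4a3. Without NBC male 3 or without NBC male 4 the number of members was 0, beside 32 and 0 of all genes. With all libraries DESeq2 called 9 members and limma-voom 0, beside 381 and 24 of all genes. With all libraries the log2 change of Igf2 was -1.63 (SE 0.436, adjusted p = 0.0825), and without the 4 libraries with high Ttr, which leaves only NBC male 2, assumed to vary like the other groups, it was -0.12. The log2 change of Col1a2 moved from -1.21 to -0.16 and that of Ogn from -2.77 to -0.15 in the same way. The summed choroid plexus markers were 153, 3511 and 6648 CPM in NBC males against 133 to 200.2 CPM in mPIA males. The 34 meningeal fibroblast genes summed to 1105, 1841 and 1615 CPM in NBC males 2, 3 and 4 and to 1012 to 1099 CPM in mPIA males. Of these genes 33 lay lower in mPIA males, with Aebp1, a collagen-binding protein, called (log2 change -2.10, adjusted p = 0.0494). Among 10 ependymal markers 5 fell, such as Drc7 (-3.26, adjusted p = 0.0143). The calls of Aebp1 and of the ependymal markers were lost without NBC male 4. The part of these cells in the member changes was not tested.

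Members without overlap in mPIA against NBC males were Col6a3, Lum, Col26a1 and Col4a6 below (7.69%, against 4.61% of all genes) and Col24a1 above (1.92%, against 5.18%). Lum, the proteoglycan lumican, had 6.41, 10.6 and 7.90 CPM in NBC males and 5.29, 6.01, 5.72 and 4.59 CPM in mPIA males (adjusted p = 0.183). Collagen I and III chains, Dcn and Fbln1 overlapped between the groups. Fn1 and Col25a1 kept near their control levels. Fn1 had 148, 187 and 185 CPM in NBC males and 223, 165, 184 and 195 CPM in mPIA males (log2 change 0.15, adjusted p = 0.773). Col25a1 had 116, 116 and 105 CPM in NBC males and 115, 142, 121 and 101 CPM in mPIA males (log2 change 0.10, adjusted p = 0.631). In Col25a1, mPIA male 2 was the highest of all libraries, whereas it was the lowest for 16 other members. Outside the members, the inhibitor Timp3 (-0.49, adjusted p = 0.018) and the integrin chain Itgb1 (-0.34, adjusted p = 0.0391) fell. In this comparison 101 of all genes were called with all libraries and 0 without NBC male 4, so neither call held.

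Other named members overlapped between groups as well. Col11a1, a chain of collagen XI, had 71.7, 19.97 and 61.2 CPM in NBC males, 68.6, 99.6, 71 and 82.2 CPM in mPIA males and 47.3, 103, 103 and 48.1 CPM in sPIA males. In females it had 58.2, 66.2, 30.0 and 64.2 CPM in NBC, 50.5, 52.3, 29.3 and 75.6 CPM in mPIA and 106, 49.3, 64.9 and 129.6 CPM in sPIA. It ranged widely within groups, and its adjusted p was 0.305 in sPIA against NBC females and 0.498 in mPIA against NBC males. Col6a1 had 86.5, 109, 80.9 and 68.3 CPM in NBC females and 85.8, 50.6, 49.2 and 50.5 CPM in sPIA females, where only sPIA female 1 overlapped the controls (log2 change -0.55, adjusted p = 0.0832). Col18a1, the basement membrane proteoglycan that holds endostatin, had 9.28, 18 and 21.6 CPM in NBC males and 11.4, 6.79, 8.73 and 9.46 CPM in mPIA males (log2 change -0.84, adjusted p = 0.0742). By class, the 11 fibrillar collagens had a median log2 change between -0.10 and 0.23 in the comparisons with controls, and the 6 proteoglycans and glycoproteins one of -0.61 in mPIA males. Without the 4 libraries with high Ttr the fibrillar medians lay between -0.36 (sPIA females) and 0.34 (sPIA males). The median of the proteoglycans and glycoproteins in mPIA males was then -0.12.

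In sPIA against NBC males no member was called by edgeR (0.194% of all genes were), and 15 had an unadjusted p under 0.05 (28.8%, against 12.1% of all genes). There limma-voom called 0 members and DESeq2 called Col8a1 alone, beside 22 and 155 of all genes. Of 52 changes 37 were below 0 (71.2%, against 49.8% of all genes), with a median of -0.25. Without the 4 libraries with high Ttr, which leaves NBC male 2 as the only control, the direction turned: 33 of 52 were above 0, with a median of 0.11. Among the 18 members named throughout 14 were then above 0, such as Col3a1 (0.82), Col1a2 (0.56), Igf2 (0.46), Aldh1a2 (1.40) and Ogn (1.58), and none was called. Without overlap were Col4a1 above (1.92%, against 3.21%) and Col9a3 and Col27a1 below (3.85%, against 3.1%). Without NBC male 2, 3 members were called (Col18a1, Col4a3 and Col8a1), beside 249 of all genes. Between sPIA and mPIA males Col11a2 alone was called (1.92%, against 4.92% of all genes, 2.8% of them lower). It had 40.6, 31.9, 35.6 and 37.4 CPM in mPIA and 20.1, 29.9, 19.3 and 24.4 CPM in sPIA males, where 5.76% of all genes were lower without overlap, and fell by 0.63 on the log2 scale (SE 0.17, adjusted p = 0.0338). Col11a2 was thus lower in sPIA than in mPIA pups of both sexes. In males the call was lost with the GC and length trend removed (adjusted p = 0.146), without 5 of 8 libraries in turn (adjusted p up to 0.115) and without the 4 libraries with high Ttr. All 8 basement membrane and network members had a log2 change above 0 in sPIA against mPIA pups, with medians of 0.24 in females and 0.40 in males, and none of them was called. Without the 4 libraries with high Ttr 5 of 8 were above 0 in females (median 0.15) and 8 of 8 in males (median 0.41). With the GC and length trend removed Col4a1 and Col4a2 were called in females, at log2 changes of 0.34 (adjusted p = 0.0348) and 0.36 (adjusted p = 0.0124), while Col24a1 (-1.50, adjusted p = 0.0634) and Col6a2 (-0.58, adjusted p = 0.0844) lost their calls there.

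The sexes differed in the effect of severe anemia for 1 member (1.92%, against 0.95% of all genes, 0.349% with a lower effect in females). Col24a1 had 5.44, 1.78, 3.41 and 4.04 CPM in NBC and 0.795, 1.45, 1.17 and 1.91 CPM in sPIA females, and 1.53, 0.867 and 0.105 CPM in NBC and 1.38, 6.68, 1.67 and 1.77 CPM in sPIA males. The female values lay mostly lower in sPIA and the male values mostly higher, and the difference of the effects, female minus male, was -3.22 on the log2 scale (SE 0.773, adjusted p = 0.0469). NBC male 4 held 2 counts of Col24a1, the call was lost without 10 of 15 libraries in turn (adjusted p up to 0.108), and DESeq2 and limma-voom did not make it. For moderate anemia 0 members differed between the sexes by edgeR, as did 0% of all genes. DESeq2 and limma-voom also called 0 here, beside 0 of all genes with each. By edgeR 13 members (25%, against 7.13% of all genes) had an unadjusted p under 0.05. With all libraries 40 of 52 differences were above 0 (76.9%, against 47.5% of all genes), with a median of 0.41. Without the 4 libraries with high Ttr, which leaves NBC male 2 as the only male control, 28 of 52 were above 0, with a median of 0.03.

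Among non-bled pups, females and males differed in 3 members (5.77%, against 10.1% of all genes), of which 1 was higher in females (4.66% of all genes were) and 2 lower (5.49%). Col24a1 was higher in all 4 females than in all 3 males (log2 change 2.11, SE 0.584, adjusted p = 0.0259). Ogn, with 3.66, 4.21, 3.63 and 1.95 CPM in females, was lower (-2.16, SE 0.651, adjusted p = 0.0424), as was Col8a1, with 2.25, 7.23, 2.38 and 1.04 CPM in females (-2.92, SE 0.843, adjusted p = 0.0368). In both, NBC male 2 lay within the female range, and without the 4 libraries with high Ttr the log2 change was 0.33 for Ogn and -0.01 for Col8a1. For Col24a1 it was 1.49 (adjusted p = 0.406). Without NBC male 2 the count of members was 10, beside 2152 of all genes. Without NBC male 3, NBC male 4 or NBC female 1 it was 0, beside 1379, 440 and 589 of all genes. Without overlap were Col24a1 and Col5a3 above (3.85%, against 10.6% of all genes) and Col4a6 below (1.92%, against 9.97%). NBC females and NBC males also differ in library code.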

How the data were processed

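Hippocampal polyadenylated RNA of 23 libraries in 6 groups was measured by RNA-seq. The authors deposited raw read counts per gene symbol; per the submitters' processing notes FastQC, TopHat2 2.0.13, Subread and edgeR were used with mm10, and the roles of these tools, the annotation and the strand setting are not stated there. Libraries were grouped by their labels. Nothing in the labels says more of replicates than that they are separate samples, so p-values measure the spread between these samples. Pairs of replicates differed beyond counting noise, with a chi-square of 3.00 to 30.1 times its degrees of freedom, and none was treated as a duplicate.

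Counts were scaled by TMM and tested with edgeR 4.0.16 (quasi-likelihood, robust, 6 group means fitted together) in R 4.3.3, after edgeR's low-count filter (minimum count 10, minimum total 15), with Benjamini-Hochberg adjustment over 15475 genes and a threshold of 0.05. A prior count of 2 was used only for the log2 levels behind the GC and length trend, the GC correlation and the replicate deviations. CPM are from TMM-scaled library sizes, and CPM per kb divides by the longest GENCODE M21 transcript; 23350 of 24421 rows carry a GENCODE symbol. Library totals of 15.2 to 44.4 mega-counts limit only members with few counts. The procedure was run on simulated data with the same dispersion for all genes, no GC trend and no outlying libraries. The libraries here differ from that setting, so the run does not show how the procedure does on them. Promoter windows come from RefSeq (GRCm38.p6).

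Alternatives were RLE scaling, no low-count filter, DESeq2 1.42.0, limma-voom (limma 3.58.1), only the compared groups, a replicate block, removal of the GC and length trend, a library code block, leaving out each library, and, chosen after seeing the data, leaving out the 4 libraries with Ttr above 1000 CPM. Named were 18 members and every further member called in a comparison (6 were). Up to 4 called genes per other list, taken by smallest p, were named only for sPIA against NBC females and mPIA against NBC males. Genes of these lists were also called in other comparisons, and they are not named for those. Other named genes, and the libraries singled out, were chosen after their values were seen. The members and lists were chosen with earlier results of these data known. A result for 1 gene outside the members is not reported here.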

Additional observations from a re-analysis of the deposited data

Results flagged for a closer look

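Among 120 groups of 4 libraries (24 named members in 5 groups), 9 held a library far from the other 3 by Dixon's criterion at the 1 in 20 level. The genes share the same libraries, and some were named because they were called. The count of 9 therefore cannot be set against a chance rate. In sPIA males, Col4a2 had 205 CPM in replicate 2 against 171 to 174 CPM in the others. In the same group, Col24a1 had 6.68 CPM in replicate 2 against 1.38 to 1.77 CPM, and Col4a5 had 17.6 CPM in replicate 1 against 11.9 to 12.6 CPM. In sPIA females, Col6a1 had 85.8 CPM in replicate 1 against 49.2 to 50.6 CPM. Col5a1 had 8.54 CPM in replicate 3 against 16.6 to 17.3 CPM. In sPIA female 2, the library of that group with high Ttr, Fbln1 had 10.1 CPM against 6.12 to 6.20 CPM and Col8a1 had 9.42 CPM against 0.933 to 2.02 CPM. Lum had 9.00 CPM in mPIA female 4 against 5.54 to 5.95 CPM, and Fbln2 had 13.9 CPM in mPIA male 1 against 7.99 to 8.89 CPM.

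The effect of severe anemia on Col24a1 differed between the sexes by -3.22 on the log2 scale (female minus male), tested as an interaction in edgeR with all groups in the fit (adjusted p = 0.0469).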

How the results depend on the processing

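Of the log2 changes recomputed for named members under the alternatives, 1244 stayed on their side of the threshold and, if not called, moved by less than 1 SE; 106 lost a call, 10 gained one, and 52 without a call moved by more. The sign changed in 89, of which 1 (Ogn, below) had been called; 27 of the 89 came from leaving out the 4 libraries with high Ttr. Of the recomputed counts of called members, 100 stayed within 1.5 times and 65 did not. Without the low-count filter the count was 0 in mPIA against NBC males (81 of all genes) and 0 for the sex difference of the sPIA effect (130). DESeq2 gave 9 in mPIA males (381 of all genes), 1 in sPIA males (155), 0 for that sex difference (463) and 5 between NBC females and males (2061). With limma-voom these were 0 in mPIA males (24 of all genes), 0 for the sex difference (114) and 1 between NBC groups (1456). With only the compared groups fitted, all 3 were 0, beside 0, 5 and 668 of all genes. With the GC and length trend removed, 2 were called in mPIA males (126 of all genes) and 2 in sPIA females (1147). That setting called 0 between sPIA and mPIA males (237), 0 for the sex difference (52) and 1 between NBC groups (571). Over all genes the same removal took the calls in sPIA against NBC females from 2472 to 1147. Without the 4 libraries with high Ttr, 0 were called in mPIA males, 0 for the sex difference and 0 between NBC groups, where the log2 change of Ogn was 0.33 instead of -2.16.

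Leaving out each library in turn gave 0 to 14 called members in mPIA males, 2 to 6 in sPIA females, 0 to 3 in sPIA males, 1 to 4 between sPIA and mPIA females, 0 to 2 between sPIA and mPIA males, 0 to 1 for the sex difference of the sPIA effect and 0 to 10 between NBC groups. Over all genes the calls then ranged from 0 to 1124 in mPIA males, 1421 to 2705 in sPIA females and 440 to 2152 between NBC groups. They ranged from 4 to 249 in sPIA males, 1582 to 2769 between sPIA and mPIA females and 230 to 1340 between sPIA and mPIA males. For the sex difference of the sPIA effect the range was 5 to 327. Same-numbered deviations correlated between -0.172 and 0.149, and in no comparison did every pair exceed 0.1, so the numbers were not taken as pairs. In mPIA and NBC females, where the same number also carries the same library code, the values were 0.108, 0.0358, 0.116 and 0.149. With the replicate number as a block, the counts were 1 in mPIA males (43 of all genes), 5 in sPIA females (2374) and 0 in sPIA males (42). Between sPIA and mPIA they were 4 in females (2412) and 1 in males (683). They were 0 for the sex differences of the mPIA effect (0) and of the sPIA effect (93), and 3 between NBC groups (1180). With the block and the GC and length trend removed, 0 were called in mPIA males (44), 2 in sPIA females (1117) and 0 between sPIA and mPIA males (197). The counts were then 0 for the sex difference of the sPIA effect (61) and 1 between NBC groups (483). The cause of these shifts was not tested. Members near the low-count filter, such as Col24a1, are limited by depth.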

Other observations

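Genes of other cells that also passed the test are given here as values. In sPIA against NBC females Alas2, the first enzyme of haem synthesis in red cell precursors, rose by a log2 change of 1.63 (adjusted p = 0.0276), and Neurod6, a transcription factor of excitatory neurons, by 0.40 (adjusted p = 0.0181). In mPIA against NBC males Pf4, a marker of border macrophages, fell by 2.19 (adjusted p = 0.0472) and F5, a marker of choroid plexus, by 3.72 (adjusted p = 0.047), while the endothelial gene Eng rose by 0.46 (adjusted p = 0.0472). These calls in males were lost without NBC male 4, where 0 of all genes were called.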
